A study of Mus musculus with 10 samples.

Results

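The respiratory chain subunits described here are the 100 protein-coding genes, of 55487 in the deposited tables, whose symbols name structural parts of complexes I to V of mitochondrial oxidative phosphorylation. They were chosen by symbol alone: names starting with Nduf (without the Ndufaf assembly factors), Uqcr, Cox4 to Cox8, Atp5, mt-Nd, mt-Co, mt-Cytb or mt-Atp, together with Cyc1 and Sdha, Sdhb, Sdhc and Sdhd. By name, 45 belong to complex I, 4 to complex II, 10 to complex III, 21 to complex IV and 20 to complex V, and 87 are encoded in the nucleus and 13 on mitochondrial DNA. Whole skin of 5 wild-type mice (WT) was compared with skin of 5 mice labelled Hamp1-KI ker (KI), a knock-in of Hamp, the gene of the iron hormone hepcidin. The labels give no age, sex, strain, promoter or driver, do not explain "ker", and name no allele or treatment in the WT mice. Each mouse gave 1 stranded mRNA library, with 18963438 to 26430328 expected counts. Library titles carry the prefix EAS37 (WT 1 to 3, KI 1 and 2) or EAS42 (WT 4 and 5, KI 3 to 5), whose meaning the labels do not give.

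Complex I oxidises NADH, complex II oxidises succinate, and both pass electrons through coenzyme Q to complex III and then by cytochrome c to complex IV, where oxygen is reduced. Complexes I, III and IV pump protons, and complex V, the ATP synthase, uses the gradient to make ATP. The chain depends on iron, since complexes I, II and III hold iron-sulfur clusters and complexes II, III and IV hold heme. Complex II is encoded by the nucleus alone, while every other complex combines nuclear subunits with subunits encoded on mitochondrial DNA. Skeletal muscle, which lies under the skin of the mouse as a thin sheet, is rich in mitochondria and uses its own isoforms of several subunits of complex IV.

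Of the 100 members, 97 had enough counts to be tested; Cox7b2, Cox8c and a second annotated Atp5o row were listed at 0 in all 10 libraries. In edgeR's quasi-likelihood test over 17321 genes with Benjamini-Hochberg adjustment, a gene was called at an adjusted p under 0.05, and 12 of the 97 members were called. That was 12.4% of the members, against 30.9% of all genes tested. Higher in KI were 4 members, Cox6a1, Cox8a, Cox7b and Cox7a2l, or 4.12%, against 15.6% of all genes. Lower were 8 members, Cox7a1, mt-Nd4l, mt-Nd2, mt-Nd4, Sdhb, Ndufs4, Sdha and Ndufa13, or 8.25%, against 15.3% of all genes. Members moved little: their median absolute log2 fold change was 0.12, against 0.30 for all genes. In 4 members, Cox6a1, Cox8a, Cox7a1 and Ndufs4, the 5 KI values did not overlap the 5 WT values in CPM (counts scaled to each library's effective size), against 20.3% of all genes. The number of lower calls was not stable: without KI 3 it was 10 and without KI 5 it was 6, but leaving out any 1 of the other 8 libraries left 1 to 4. The higher calls fell to 2 without any 1 of WT 1, WT 3, WT 4, KI 1 and KI 2, and were 3 or 4 without any other library.

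**Figure D1:**
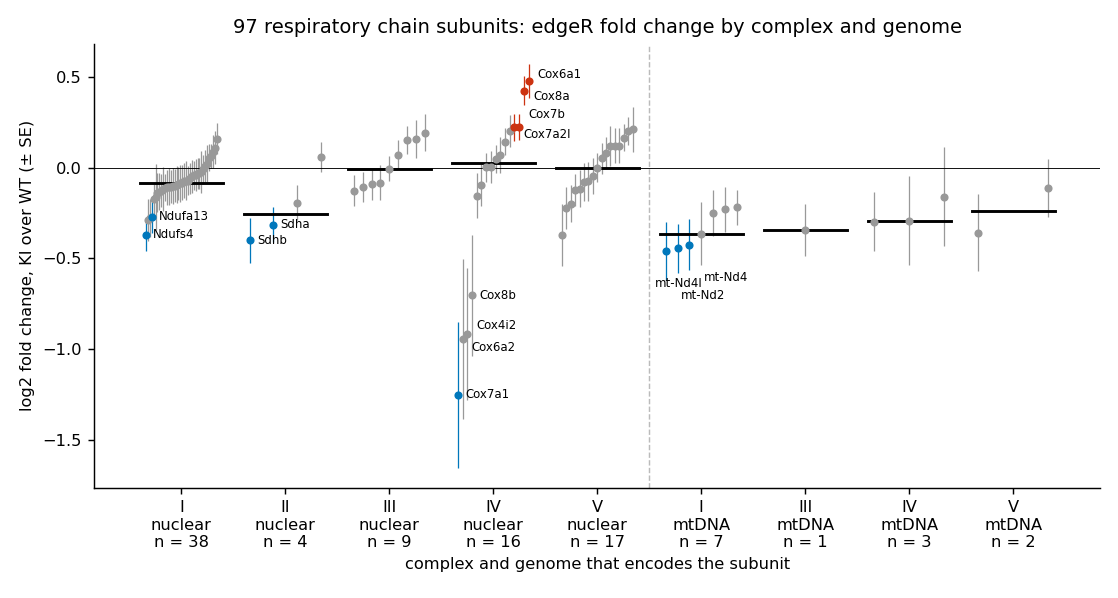
Log2 fold change of KI over WT (edgeR, vertical bars ± SE) for the 97 subunits tested, by complex and by the genome that encodes them. Red points were called higher, blue points called lower, grey points not called, and black lines are medians. Of the 84 nuclear subunits 71 lie within 0.25 of 0, and the highest and the lowest of the others are in complex IV, while all 13 mitochondrially encoded subunits lie below 0.

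The 84 nuclear members tested had a median log2 fold change of -0.07, with 31 above and 53 below 0, and 71 of them (84.5%) changed by less than 0.25 on the log2 scale, as did 43.9% of all genes. The 13 mitochondrial members had a median of -0.30 and all 13 fitted values were below 0, although only mt-Nd4l, mt-Nd2 and mt-Nd4 passed the test. In EAS37 libraries alone mt-Co2, mt-Co3 and mt-Atp6 were above 0 (0.16, 0.34 and 0.04), in EAS42 alone mt-Atp8 was (0.14), and without WT 4 mt-Co3 was at 0.01. All genes had a median of -0.01. By complex, the nuclear medians were -0.08 for complex I (38 tested), -0.25 for complex II (4), -0.01 for complex III (9), 0.03 for complex IV (16) and 0.00 for complex V (17). The mitochondrial medians were -0.36 for complex I (7), -0.29 for complex IV (3) and -0.24 for complex V (2), and mt-Cytb, the 1 mitochondrial gene of complex III, was at -0.34. The members share their 10 libraries, so these medians are descriptions and carry no test.

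Levels between genes were compared in TPM, transcript abundances that are scaled per length and per library. The median WT level was 199 TPM for nuclear subunits of complex I, 138 TPM for complex II, 392 TPM for complex III, 380 TPM for complex IV and 430 TPM for complex V. Atp5b, the catalytic beta subunit of the ATP synthase, had the highest nuclear level at 1240 TPM. The listed levels of mitochondrial genes ran from 856 TPM for mt-Co2 to 24198 TPM for mt-Atp8. The latter is a short gene (chrM:7766-7969) whose TPM depends strongly on its length: it held 877 CPM in WT, against 17964 CPM for mt-Co1. The sums below include mt-Atp8 at its TPM. They leave out counts listed under nuclear copies of 4 of the genes, which are described further below. Summed over the 13 mitochondrial genes, WT libraries held 99563, 92697, 99058, 103636 and 93309 TPM, and KI libraries 68059, 72094, 98191, 72032 and 67867 TPM. Libraries KI 1, KI 2, KI 4 and KI 5 lay below every WT library, and KI 3 lay within their range. Nuclear sums overlapped more, at 24885 to 28529 TPM in WT and 21977 to 27448 TPM in KI.

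Tissue markers also differed between the groups. The mean log2 CPM of 22 skeletal muscle markers was 9.93, 10.55, 9.90, 10.24 and 10.54 in WT 1 to 5, and 8.58, 6.75, 9.97, 8.51 and 9.38 in KI 1 to 5. All 22 markers had a fold change below 0, and 4 were called lower (18.2%, against 15.3% of all genes). Their summed level was 34719 to 60606 CPM in WT and 3879 to 37690 CPM in KI, with no marker at 0. A separate list of 7 slow skeletal muscle markers had 3 tested and 0 called, with 2 above 0 and 1 below. Those tested summed to 188 to 217 CPM in WT and 205 to 289 CPM in KI. In whole skin, fewer cells of a type and less RNA per cell cannot be told apart. The mean level of the 22 markers was then added to the edgeR model as a covariate, and 0 of 97 members were called. Of these members 5 had an unadjusted p under 0.05, and 425 genes (2.45%) were called in all. The nuclear median then turned to 0.11 and the mitochondrial median was -0.19, while the 12 members called before all kept their sign. Muscle level and genotype were partly confounded, since 4 of 5 KI libraries were below all WT libraries in it. A lost call therefore does not by itself show a smaller difference. Cox7b was at 0.26 ± 0.10 with the covariate and 0.22 ± 0.07 without it (log2 fold change ± SE). Sdhb was at -0.06 ± 0.09 with the covariate and -0.40 ± 0.12 without it. Among KI libraries, KI 3 was highest in both the muscle level and the mitochondrial sum, KI 2 had the lowest muscle level and a sum of 72094 TPM, and KI 5 had the second highest muscle level and the lowest sum. Among WT libraries, WT 2 and WT 5 had the highest muscle levels and the lowest mitochondrial sums (92697 and 93309 TPM). The WT order depended on the measure. mt-Atp8 held 17248 TPM in WT 5 and 23850 to 27933 TPM in the other WT libraries. By share of counts in the 13 mitochondrial genes, WT 5 was second highest at 5.00%, within a WT range of 4.51% to 5.13%. Whether the sum follows the muscle level within a genotype was not tested. Other markers also moved: 9 of 13 white adipocyte markers fell (summed 2553 to 3410 CPM in WT, 960 to 1720 CPM in KI), 8 of 9 endothelial markers fell (250 to 340 against 151 to 202 CPM), 14 of 14 cell cycle markers rose (232 to 394 against 500 to 911 CPM) and 5 of 10 neutrophil and macrophage markers rose (123 to 227 against 248 to 394 CPM). Keratinocyte markers summed to 20017 to 22973 CPM in WT and 20443 to 32332 CPM in KI, with 5 of 14 higher and 3 lower. Brown adipocyte markers summed to 162 to 214 CPM in WT and 285 to 510 CPM in KI. Their mean log2 CPM overlapped, at 3.79 to 4.21 in WT and 3.63 to 4.79 in KI, with KI 2 the lowest library. Of the 6 tested, Elovl3, which is also known from sebaceous glands, and Dio2 rose and Ebf2 fell. Ucp1, the defining gene of brown fat, was too low to be tested, with 21 counts in all WT and 22 in all KI libraries. The part of these lists other than muscle in the results was not tested.

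**Figure D2:**
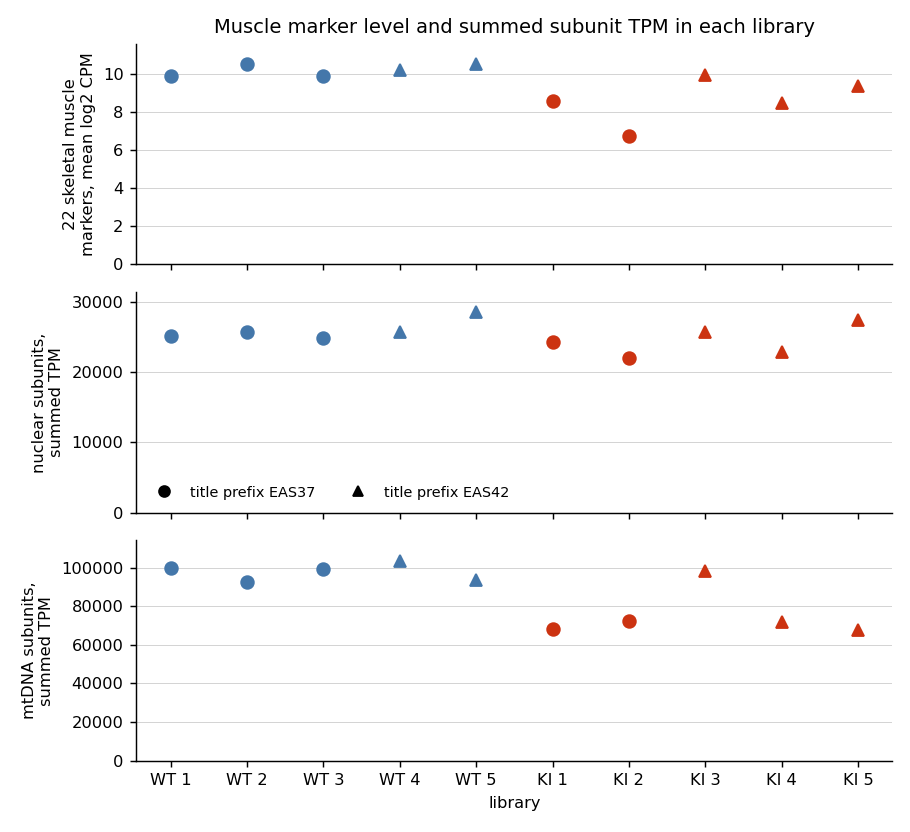
Mean log2 CPM of 22 skeletal muscle markers (top), summed TPM of the nuclear subunits (middle) and summed TPM of the mitochondrially encoded subunits (bottom) in each library, with WT in blue and KI in red, and circles for titles with the prefix EAS37 and triangles for EAS42. The mitochondrial sums of KI 1, KI 2, KI 4 and KI 5 lie between 67867 and 72094 TPM, below all WT libraries, and KI 3 lies at 98191 TPM with a muscle level inside the WT range.

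Complex IV, cytochrome c oxidase, held both the largest rises and the largest falls among members. Of its 16 nuclear subunits tested, 4 rose (25%) and 1 fell (6.25%), against 15.6% and 15.3% of all genes. Cox6a1 encodes the form of subunit 6A found in most tissues (ENSMUSG00000041697, chr5:115345642-115348981, minus strand, GRCm38). Its level was 117, 103, 119, 120 and 112 CPM in WT and 189, 168, 131, 152 and 156 CPM in KI. Every KI library was above every WT library, and the log2 fold change was 0.48 ± 0.09 (SE, n = 5 against 5; edgeR adjusted p = 0.00503). Cox8a encodes the common form of subunit 8 (ENSMUSG00000035885, chr19:7215153-7217616, minus strand). Its level was 119, 108, 128, 119 and 117 CPM in WT and 178, 171, 143, 149.5 and 151 CPM in KI, again without overlap, and its log2 fold change was 0.43 ± 0.08 (SE, n = 5 against 5; edgeR adjusted p = 0.00367). Both calls held without any 1 library, with adjusted p between 0.00243 and 0.0137 for Cox6a1 and between 0.00367 and 0.0105 for Cox8a. With the muscle level in the model, Cox6a1 had a log2 fold change of 0.32 (adjusted p = 0.187) and Cox8a of 0.29 (adjusted p = 0.142). In KI 3, whose muscle level was within the WT range, both genes were the lowest of the KI libraries and above all WT libraries.

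Cox7b, another small subunit, was at 148 to 168 CPM (median 159) in WT and 167 to 206 CPM (median 180) in KI, where only KI 4 fell within the WT range. Its log2 fold change was 0.22 ± 0.07 (SE, n = 5 against 5; edgeR adjusted p = 0.0348). Cox7a2l, which despite its name is known as a factor that joins complexes III and IV into supercomplexes, was at 177 to 213 CPM in WT and 205 to 246 CPM in KI, where only KI 3 fell within the WT range, with a log2 fold change of 0.22 ± 0.07 (SE, n = 5 against 5; edgeR adjusted p = 0.0433). Both calls were lost without any 1 of WT 1, WT 3, WT 4, KI 1 and KI 2, and that of Cox7a2l also without WT 2 or KI 4. Of other common nuclear subunits of complex IV without a muscle isoform, Cox5a was at a log2 fold change of -0.10, Cox5b at 0.01, Cox6c at 0.05, Cox7c at 0.00 and Cox6b1 at 0.20 (unadjusted p = 0.0466), and edgeR called none of these 5.

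The muscle and heart isoforms of complex IV stood at the other end. Cox7a1, the form of subunit 7A of heart and skeletal muscle (ENSMUSG00000074218, chr7:30184144-30186078, plus strand), was at 25.4, 37.9, 25.5, 26.4 and 36.3 CPM in WT and 14.1, 3.57, 17.7, 7.28 and 20.98 CPM in KI. All KI libraries were below all WT libraries, with a log2 fold change of -1.25 ± 0.40 (SE, n = 5 against 5; edgeR adjusted p = 0.0394). The call was lost without any 1 WT library and without KI 1 or KI 4 (adjusted p from 0.0234 to 0.0869 when 1 library was left out). Cox6a2, the corresponding form of subunit 6A, was at 101, 142, 99.4, 117 and 147 CPM in WT and 53.7, 14.4, 111, 41.8 and 94.8 CPM in KI. KI 3 lay among the WT values, and the log2 fold change of -0.94 ± 0.44 did not pass (SE, n = 5 against 5; edgeR adjusted p = 0.130). Cox8b, the corresponding form of subunit 8, was at 41.6 to 65.2 CPM in WT and 11.5 to 49.9 CPM in KI, with a log2 fold change of -0.70 ± 0.33 (SE, n = 5 against 5; edgeR adjusted p = 0.133). With the muscle level in the model these were -0.15 for Cox7a1, 0.28 for Cox6a2 and 0.22 for Cox8b, so that Cox6a2 and Cox8b changed sign.

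Within each pair of alternative isoforms, the muscle form took a smaller share of the pair's TPM in KI. Cox6a2 made up 40.7%, 52.3%, 39.7%, 43.6% and 50.9% of Cox6a2 and Cox6a1 together in WT, and 18.5%, 6.36%, 40.2%, 17.9% and 32.6% in KI. Cox7a1 made up 36.3% to 45.5% of Cox7a1 and Cox7a2 in WT and 19.8%, 6.71%, 27.5%, 13.7% and 28.4% in KI. Cox8b made up 41.2% to 54.2% of Cox8b and Cox8a in WT and 26.9%, 11.6%, 40.6%, 23.5% and 37.1% in KI. The Cox7a1 and Cox8b shares did not overlap between groups, while the Cox6a2 share of KI 3 lay just inside the WT range. KI 2, with the lowest muscle level, had the lowest share in all 3 pairs. The summed TPM of a pair varied less than its makeup, at 709 ± 31.9 in WT and 658 ± 82.6 in KI for Cox6a1 and Cox6a2 (mean ± SD, n = 5 each), and at 798 ± 51.0 and 743 ± 90.0 for Cox8a and Cox8b. For Cox7a1 and Cox7a2 it was 445 ± 45.9 in WT and 348 ± 54.2 in KI.

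**Figure D3:**
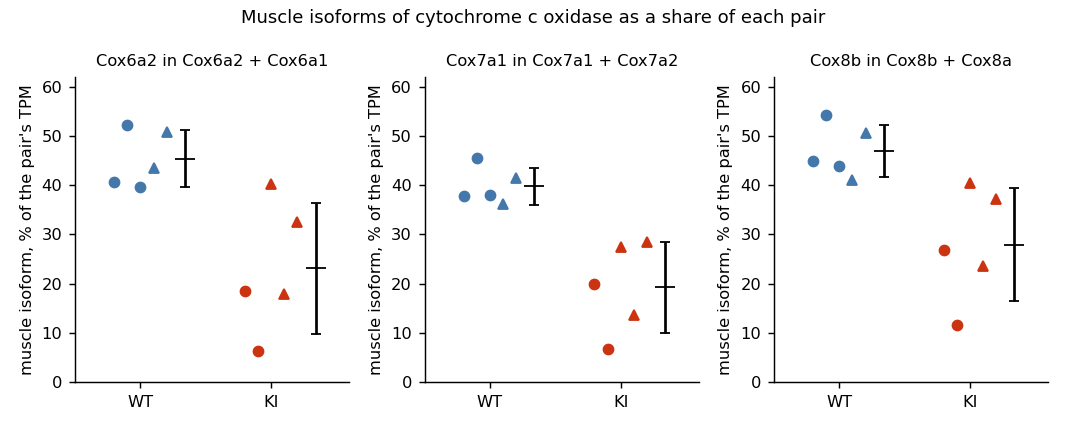
Muscle isoform as a percent of the summed TPM of its isoform pair, for subunits 6A, 7A and 8 of cytochrome c oxidase, in each WT (blue) and KI (red) library, with group means ± SD in black, and circles for the prefix EAS37 and triangles for EAS42. KI 2 is lowest in each pair, at 6.36%, 6.71% and 11.6%.

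Other tissue isoforms differed less or were rare. Cox4i2, the oxygen-responsive form of subunit 4 best known from lung, was at 1.25 to 3.12 CPM in WT and 0.656 to 1.88 CPM in KI and never reached 1% of the pair with Cox4i1; its log2 fold change of -0.92 ± 0.36 did not pass (SE, n = 5 against 5; edgeR adjusted p = 0.0767). Cox6b2, the testis form of subunit 6B, had a log2 fold change of -0.15 (adjusted p = 0.362). Ndufa4l2, a hypoxia-responsive relative of Ndufa4, had one of -0.16 (adjusted p = 0.529) and made up 8.15% to 13.5% of its pair in WT and 7.16% to 12.9% in KI. Ndufa4 itself is named as a complex I gene and counted there, but its protein is known as a subunit of complex IV. Over all libraries, the 7 common counterparts (Cox6a1, Cox7a2, Cox8a, Cox4i1, Cox6b1, Cox7b and Ndufa4) had fold changes above 0. Called higher were 3 of them, Cox6a1, Cox8a and Cox7b (42.9%), against 15.6% of all genes. The list was written with earlier results of these data known. In EAS42 libraries alone, Ndufa4, Cox4i1 and Cox7a2 were below 0 (-0.13, -0.10 and -0.02), as was Cox4i1 on log2(TPM + 1) (-0.03).

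Promoters are shown for the 2 common subunits that rose most and for 2 muscle isoforms, to print the letters in which motifs were searched. Each is the 200 bases before the RefSeq start (GRCm38.p6), except that Cox8a is shifted to include the first 10 transcribed bases; all are written 5′ to 3′ on the gene's strand, with a match to a searched motif in capitals. The Cox6a1 stretch is chr5:115348959-115349158, Cox8a chr19:7217607-7217806, Cox7a1 chr7:30183971-30184170 and Cox8b chr7:140900447-140900646.
Cox6a1: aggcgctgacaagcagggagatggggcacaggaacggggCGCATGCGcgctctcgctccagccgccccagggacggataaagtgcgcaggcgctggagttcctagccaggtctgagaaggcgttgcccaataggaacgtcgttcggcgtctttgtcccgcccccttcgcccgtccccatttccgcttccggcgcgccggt
Cox8a: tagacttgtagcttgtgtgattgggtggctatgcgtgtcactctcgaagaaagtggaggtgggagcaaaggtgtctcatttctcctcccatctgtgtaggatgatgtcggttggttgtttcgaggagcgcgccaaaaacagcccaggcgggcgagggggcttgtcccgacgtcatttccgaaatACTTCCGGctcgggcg
Cox7a1: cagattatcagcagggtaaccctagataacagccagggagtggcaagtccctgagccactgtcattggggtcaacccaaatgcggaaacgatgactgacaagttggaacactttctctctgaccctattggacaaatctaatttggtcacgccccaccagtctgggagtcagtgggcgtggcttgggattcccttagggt
Cox8b: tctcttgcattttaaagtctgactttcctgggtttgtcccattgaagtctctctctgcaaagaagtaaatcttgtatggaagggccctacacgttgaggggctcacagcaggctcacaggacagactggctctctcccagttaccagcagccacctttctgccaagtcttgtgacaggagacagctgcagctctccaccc
Cox6a1 holds the core of the nuclear respiratory factor 1 motif 161 bases before the start, and Cox8a holds the reverse complement of the GABP core, which begins 6 bases before it. The Cox7a1 and Cox8b stretches hold no match to the 4 motifs searched.

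Promoter sequences in the RefSeq table (250 bases before to 50 after the start, either strand) were found for 67 of the 86 nuclear member symbols. The NRF1 core CGCATGCG was in 9 of the 67 (13.4%), namely Atp5g2, Atp5j, Atp5k, Atp5l, Cox6a1, Ndufa11, Ndufa8, Uqcr11 and Uqcrc1, and in 2.07% of all 27025 symbols with a promoter. The YY1 core AAGATGGC was in 9 (13.4%), among them Ndufs4, 36 bases after the start, against 3.19% of all. The GABP core CCGGAAGT was in 5 (7.46%; Atp5h, Cox8a, Ndufs3, Uqcr11 and Uqcrh) against 4.31%, and the estrogen-related receptor motif TCAAGGTCA in 2 (2.99%; Atp5g3 and Sdhd) against 0.466%. In no member did matches to different motifs overlap. Of the 9 nuclear members called, Cox6a1, Cox8a and Ndufs4 held one of the 4 motifs. Whether members that were not called held them as often was not tested, and not every member had a promoter sequence. These are matches of letters, not binding sites.

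Complex II had 2 of its 4 subunits called, Sdha and Sdhb of its catalytic head, both lower, against 15.3% of all genes called lower. Sdha, the flavoprotein that binds succinate (ENSMUSG00000021577, chr13:74322254-74350280, minus strand), was at 250, 276, 244, 260 and 285 CPM in WT and 209, 178, 254, 196 and 221 CPM in KI. KI 3 alone reached the WT range, and the log2 fold change was -0.31 ± 0.10 (SE, n = 5 against 5; edgeR adjusted p = 0.0317). Sdhb, which carries iron-sulfur clusters (ENSMUSG00000009863, chr4:140961203-140979193, plus strand), was at 95.7, 106, 96.3, 89.1 and 115 CPM in WT and 74.0, 58.2, 94.2, 69.2 and 85.0 CPM in KI. Again KI 3 alone overlapped WT, with a log2 fold change of -0.40 ± 0.12 (SE, n = 5 against 5; edgeR adjusted p = 0.0323). The membrane anchors that hold the heme, Sdhc and Sdhd, had log2 fold changes of -0.19 and 0.06 (adjusted p = 0.155 and 0.626). Summed over the 4 genes, complex II was at 570 ± 37.1 TPM in WT and 468 ± 63.0 TPM in KI (mean ± SD, n = 5 each). With the muscle level in the model, Sdha was at -0.07 and Sdhb at -0.06. Without KI 3 they were at -0.39 and -0.49, with adjusted p of 0.00897 and 0.0122. Both calls were lost without any 1 of WT 2, WT 5, KI 1, KI 2 and KI 4, that of Sdha also without WT 4, and that of Sdhb without WT 1 or WT 3 (adjusted p at most 0.0880).

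Complex I is the largest complex. Of its 38 nuclear subunits 31 lay below 0 and 34 changed by less than 0.25 on the log2 scale. Of the 38, 2 were called, Ndufs4 and Ndufa13, both lower (5.26%, against 15.3% of all genes called lower). Ndufs4, an accessory subunit whose loss causes a mitochondrial encephalopathy in mice and people (ENSMUSG00000021764, chr13:114287795-114388258, minus strand), was at 70.6, 67.6, 66.9, 76.0 and 81.95 CPM in WT and 60.4, 49.3, 58.2, 50.9 and 62.3 CPM in KI. The groups did not overlap, and the log2 fold change was -0.37 ± 0.09 (SE, n = 5 against 5; edgeR adjusted p = 0.0114). The call held without any 1 library (adjusted p from 0.0102 to 0.0356), and the value with the muscle level was -0.21 (adjusted p = 0.331). Ndufa13, also called GRIM-19, was at 101 to 122 CPM in WT and 76.9 to 102 CPM in KI, where only KI 5 reached the WT range, with a log2 fold change of -0.27 ± 0.09 (SE, n = 5 against 5; edgeR adjusted p = 0.0445). That call was lost without any 1 library other than KI 5. Ndufs1, an iron-sulfur protein of the electron entry arm, was at -0.28 (adjusted p = 0.0616) and passed without KI 3 (-0.37, adjusted p = 0.00948); it overlaps Eef1b2 on the opposite strand, and the strand setting of the counting is not given in the sources used here.

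**Figure D4:**
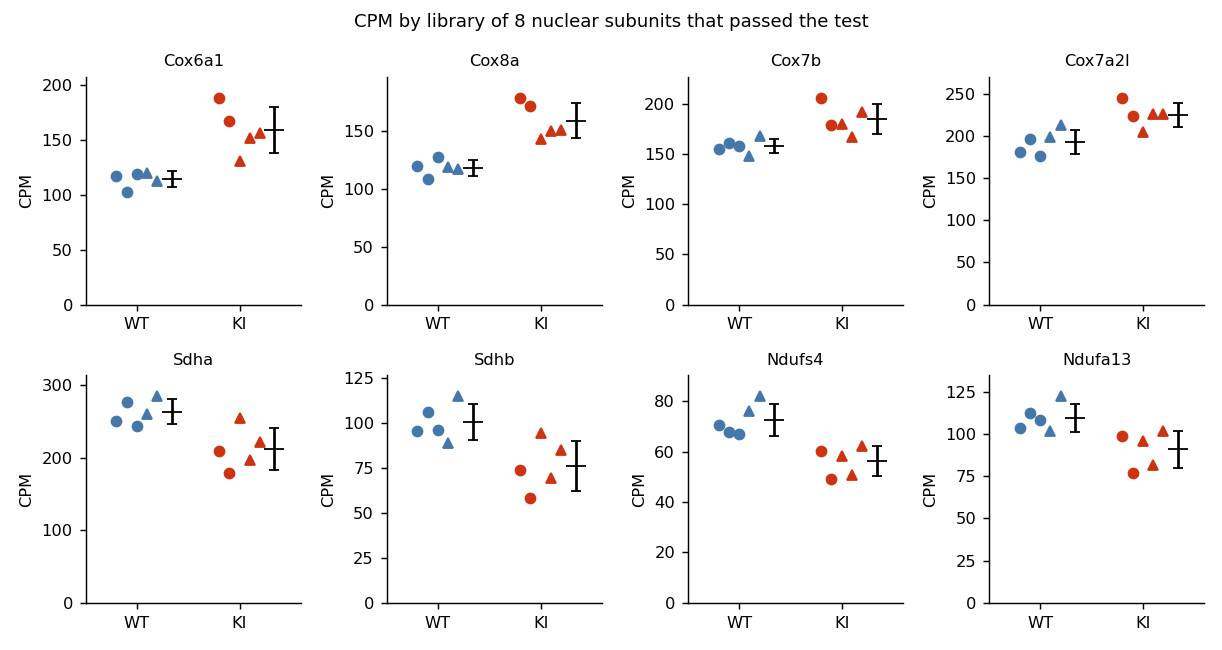
CPM by library of 8 nuclear subunits that passed the test, in WT (blue) and KI (red), with group means ± SD in black, and circles for the prefix EAS37 and triangles for EAS42. Cox6a1, Cox8a and Ndufs4 do not overlap between groups, and KI 3 is the highest KI library for Sdha and Sdhb.

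By cofactor, the 7 iron-sulfur subunits (Ndufs1, Ndufs7, Ndufs8, Ndufv1, Ndufv2, Sdhb and Uqcrfs1) had 6 fold changes below 0, a median of -0.08 and 1 call, Sdhb. That call is 14.3% of the 7, against 15.3% of all genes called lower. The other edgeR counts in this paragraph are to be read against the 30.9% of all genes called. The core subunits Ndufv1, Ndufv2, Ndufs7 and Ndufs8 were at -0.08, -0.07, -0.04 and 0.06, each with an adjusted p of 0.499 or more. The 5 subunits that bind heme (Sdhc, Sdhd, Cyc1, mt-Cytb and mt-Co1) had a median of -0.19, 4 below 0 and 0 calls, with 1 unadjusted p under 0.05; DESeq2 called mt-Cytb and mt-Co1 lower, and limma-voom mt-Cytb. Of the 9 nuclear members of complex III, 0 were called by edgeR, DESeq2 or limma-voom, and 0 had an unadjusted p under 0.05. Of the 17 tested of complex V, edgeR and limma-voom called 0, 1 had an unadjusted p under 0.05, and DESeq2 called Atp5l higher. In complex III all 9 nuclear subunits changed by less than 0.25 on the log2 scale, from -0.13 for Uqcrc1, a core protein, to 0.19 for Uqcrq. In complex V the fold changes ran from -0.37 for Atp5s, a factor outside the enzyme's core at 7.20 to 12.3 CPM in WT, to 0.21 for Atp5mpl. The 3 genes of the membrane c ring, Atp5g1, Atp5g2 and Atp5g3, encode the same mature protein and were at -0.22, 0.12 and 0.12 (adjusted p = 0.165, 0.432 and 0.351). Atp5g2 shares sequence with the pseudogene Gm10175, whose counts were 42.5% of its own, and Ndufb4 with Ndufb4c, whose counts were 113% of its own, so both values are uncertain.

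Among mitochondrially encoded subunits, 3 of the 7 genes of complex I (42.9%) were called lower, against 15.3% of all genes. mt-Nd2 (chrM:3914-4951, plus strand) was at 2834, 2730, 2861, 3165 and 2899 CPM in WT and 2168, 1932, 2819, 1902 and 1823 CPM in KI. Its log2 fold change was -0.44 ± 0.14 (SE, n = 5 against 5; edgeR adjusted p = 0.0310). mt-Nd4 (chrM:10167-11544) was at 5695 to 6433 CPM in WT and 4704, 4060, 5888, 4044 and 4013 CPM in KI, with a log2 fold change of -0.42 ± 0.14 (SE, n = 5 against 5; edgeR adjusted p = 0.0424). mt-Nd4l, which overlaps mt-Nd4 and is transcribed with it, was at 481 to 557 CPM in WT and 398, 350, 552, 358 and 267 CPM in KI (-0.46 ± 0.16, SE, n = 5 against 5; edgeR adjusted p = 0.0498). In all 3 genes only KI 3 reached the WT range. Each of the 3 calls was lost without any 1 of WT 1, WT 3, WT 4, WT 5, KI 1, KI 2, KI 4 and KI 5, with adjusted p of at most 0.116, and that of mt-Nd4l also without WT 2. Without KI 3 the log2 fold changes were -0.63 for mt-Nd4l, -0.57 for mt-Nd2 and -0.53 for mt-Nd4, and mt-Nd5 (-0.51, adjusted p = 0.0265) and mt-Cytb (-0.42, adjusted p = 0.0425) were called too.

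The remaining mitochondrial genes were not called with all libraries. mt-Nd5, mt-Nd1, mt-Nd6 and mt-Nd3 were at -0.36, -0.25, -0.23 and -0.22 (adjusted p = 0.135, 0.157, 0.181 and 0.108). mt-Cytb, the heme-bearing core of complex III, was at -0.34 (adjusted p = 0.0881), with 6030 to 7009 CPM in WT and 5787, 4726, 6155, 4507 and 4300 CPM in KI. mt-Co1, the catalytic subunit of complex IV, was at -0.30 ± 0.16 (SE, n = 5 against 5; edgeR adjusted p = 0.184). mt-Atp8 was at -0.11 (adjusted p = 0.618). Summed per complex in TPM, where lengths and scaling differ from CPM, complex I genes were at 35986 to 39118 in WT and 25988, 25383, 35694, 26176 and 25711 in KI, and mt-Cytb at 8559 to 9689 and 5992 to 8389, so that neither overlapped between groups. On log2(TPM + 1) with limma, 2 members were called higher and 16 lower, in place of 4 and 8, and 9 of the 16 were mitochondrial. TPM scaling also moved the median of all genes downwards, as given in the last section. The share of all genes called with this setting is not given here, so these counts have no background to be read against.

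**Figure D5:**
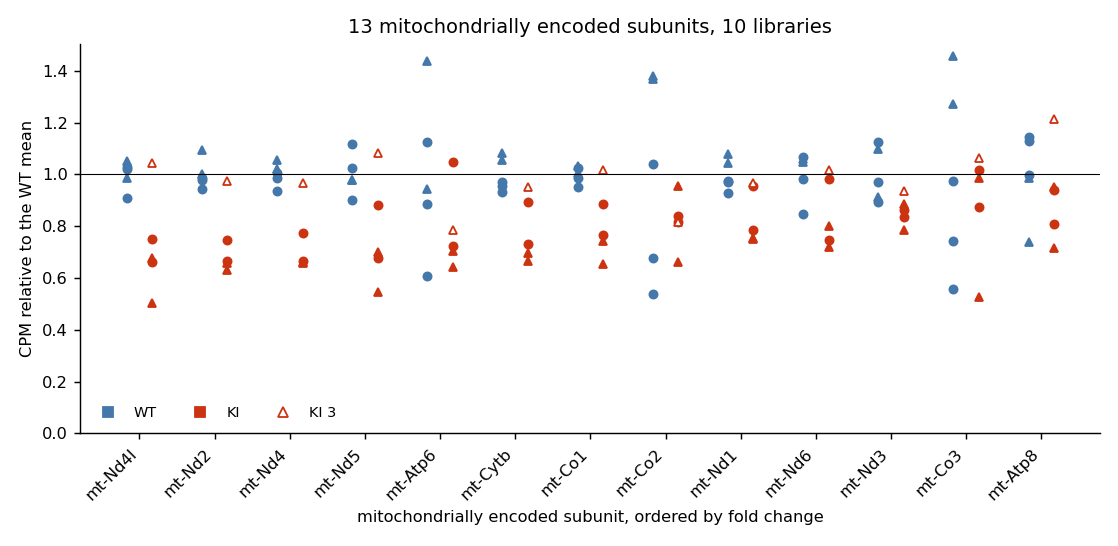
CPM of each of the 13 mitochondrially encoded subunits relative to its WT mean (linear axis from 0), with 5 WT libraries in blue and 5 KI libraries in red, circles for the prefix EAS37 and triangles for EAS42, and KI 3 as an open triangle. KI 3 lies near the WT mean for mt-Nd4l, mt-Nd2 and mt-Nd4, while mt-Co2, mt-Co3 and mt-Atp6 spread widely within WT.

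The deposited counts of 4 mitochondrial genes were split with nuclear copies. A stretch of chromosome 1 carries annotated pseudogenes that GENCODE M21 lists with the same sequence: Gm28661 (chr1:24614885-24615565) matches mt-Co2 over all of its 681 bases, Gm10925 (chr1:24613974-24614651) matches mt-Atp6 over all of its 678 bases and Gm28437 (chr1:24613189-24613971) matches mt-Co3 over all of its 783 bases, each with 0 mismatches. Gm29216 (chr1:24615706-24616197) matches the last 492 bases of mt-Co1 with 6 mismatches. The first 60 bases of 2 pairs are shown, because a read from either row of a pair is the same.
mt-Co2: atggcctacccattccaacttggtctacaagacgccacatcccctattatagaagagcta
Gm28661: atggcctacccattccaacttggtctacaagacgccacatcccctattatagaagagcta
mt-Atp6: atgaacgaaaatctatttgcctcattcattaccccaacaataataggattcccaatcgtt
Gm10925: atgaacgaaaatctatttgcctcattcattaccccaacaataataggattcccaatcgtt
The mt-Co2 stretch is chrM:7013-7072 on the plus strand and that of Gm28661 is chr1:24615506-24615565 on the minus strand; those of mt-Atp6 and Gm10925 are chrM:7927-7986 and chr1:24614592-24614651.

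Of the joint counts of each pair, mt-Co2 held 2.17% to 5.12%, mt-Atp6 4.40% to 9.49%, mt-Co3 22.4% to 52.3% and mt-Co1 79.4% to 87.9% over the 10 libraries. The listed 856 TPM of mt-Co2 in WT is thus a small part of 22022 ± 1185 TPM (mean ± SD, n = 5) held by mt-Co2 and Gm28661 together, and the pair's KI level was 18771 ± 1371 TPM (n = 5). The listed mt-Co3 varied from 1691 to 4416 CPM within WT, and the pair with Gm28437 from 7250 to 8638 CPM. The 13 genes held 4.51% to 5.13% of counts in WT and 3.45% to 4.88% in KI, and with the 4 copies 6.62% to 7.41% and 5.48% to 7.19%. After the rows of each pair were merged and the edgeR fit repeated, log2 fold changes were -0.27 for mt-Co1, -0.13 for mt-Co2, -0.23 for mt-Co3 and -0.07 for mt-Atp6 (adjusted p = 0.213, 0.454, 0.201 and 0.713), and the same 12 members were called. The mitochondrial median was then -0.25, in place of -0.30. The copies of mt-Nd3 and mt-Nd4l, Gm28438 and Gm10222, share 98.1% and 98.9% of the genes' 31-base words and were listed at 0 counts.

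The title prefixes gave different lists. Among EAS37 libraries alone (3 WT, 2 KI), 5 members were called higher and 6 lower (11.3% of 97), against 28.4% of all genes; among EAS42 libraries alone (2 WT, 3 KI), 1 was higher, Cox8a, and 3 lower, Ndufs4, mt-Co2 and mt-Atp6, or 4.12%, against 13.9% of all genes. All 12 members called over all libraries had the same sign in both. Cox6a1 was at 0.68 in EAS37 and 0.32 in EAS42 (adjusted p = 0.00642 and 0.0841), and Cox8a at 0.58 and 0.32 (adjusted p = 0.00846 and 0.0489). In edgeR's test of the difference itself, 0 of 97 members were called and 8 had an unadjusted p under 0.05, or 8.25%, against 17.7% of all genes; 150 genes (0.866%) were called in all. The smallest adjusted p among members was 0.147, for Uqcrh, the hinge protein of complex III, at 0.41 in EAS37 and -0.10 in EAS42. The mt-Co2 and mt-Atp6 calls in EAS42 rest on rows that share their reads with the copies.

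Hamp, the gene named by the genotype, was at 1.86 to 3.33 CPM in WT and 85.6 to 169 CPM in KI, so every library matched its label. Other mitochondrial genes, from lists written for this purpose, are given for context; their counts are to be read against the 15.6% of all genes that rose and the 15.3% that fell. Of 47 assembly factors tested, 1 rose, Uqcc2 of complex III (53.0 to 69.1 CPM, group means), and 2 fell, Bcs1l, which inserts the complex III iron-sulfur protein (10.6 to 6.98 CPM), and Cox15 of heme A synthesis (30.2 to 24.0 CPM); the median was -0.07. Of 18 genes of pyruvate dehydrogenase and the citric acid cycle, all 18 lay below 0 (median -0.29) and 3 fell, Sucla2 (171 to 121 CPM), Idh2 (107 to 79.0 CPM) and Pdha1 (293 to 219 CPM); with the muscle level the median was -0.02. Cs, the citrate synthase gene often used as a measure of mitochondrial content, was at -0.13 (adjusted p = 0.345). Of 78 mitochondrial ribosomal protein genes, 15 rose (19.2%), such as Mrps27 (21.4 to 34.3 CPM), and 0 fell, with a median of 0.12 and 1 gene lower at an unadjusted p under 0.05; DESeq2 called 17 higher and 1 lower, and limma-voom 15 and 0.

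Among 19 genes of electron carriers and coenzyme Q, 3 rose (15.8%) and 2 fell (10.5%), against 15.6% and 15.3% of all genes. Pdss1, which makes the side chain of coenzyme Q, was at 9.81 to 15.6 CPM in WT and 33.9 to 65.2 CPM in KI. Its log2 fold change was 2.02 ± 0.18 (SE, n = 5 against 5; edgeR adjusted p = 0.000119), and 1.79 with the muscle level (adjusted p = 0.00530). Coq8b rose from 25.6 to 42.4 CPM and Coq4 from 10.6 to 13.6 CPM, and Etfb and Coq10a fell. Cycs, the mobile carrier cytochrome c, was at -0.10 (adjusted p = 0.381). Of 13 carriers and channels, 3 rose (23.1%) and 4 fell (30.8%). The adenine nucleotide carrier of muscle and heart, Slc25a4, fell (677 to 370 CPM) and its common relative Slc25a5 rose (261 to 398 CPM). Of the aspartate and glutamate carriers, Slc25a12 fell (99.5 to 53.9 CPM) and Slc25a13 rose (9.34 to 25.1 CPM). Ckmt1 also rose, and Vdac3 and Slc25a11 fell. Of 34 genes of mitochondrial DNA maintenance and expression, 1 rose, Tbrg4 (34.5 to 46.0 CPM), and Tfam, the packaging factor of mitochondrial DNA, was at 0.04 (adjusted p = 0.653). Of 12 nuclear regulators, Ppard, Esrra and Ppargc1b rose and Ppargc1a, a coactivator of mitochondrial genes that is abundant in muscle, fell (12.2 to 7.28 CPM; -0.18 with the muscle level), while Nrf1, Gabpa and Yy1 were at 0.20, 0.13 and 0.16 (adjusted p = 0.141, 0.176 and 0.0599). Of 16 genes of fatty acid oxidation 1 fell, Hadhb, with a median of -0.10.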

How the data were processed

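Skin of 10 mice gave 1 stranded mRNA library each, per the labels' protocols. Of the tools in the submitters' processing notes, STAR is given as version 2.5.2b and DESeq2 as 1.14.1, and the build as GRCm38. Column names are those RSEM writes, per the file headers; the authors' values are expected counts (estimates that need not be whole), TPM and FPKM, beside lengths. How reads of either strand, or reads with several matches, were counted is not given in the sources used here. Deposited FPKM values and lengths were not used; deposited TPM values gave levels, sums and isoform shares.

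Expected counts were rounded and tested with edgeR 4.0.16 in R 4.3.3 (TMM, filterByExpr with minimum count 10 and total 15, robust quasi-likelihood, Benjamini-Hochberg over 17321 genes). DESeq2 1.42.0, limma 3.58.1 (pseudocount 1 on TPM) and other settings were alternatives. Groups came from the titles; replicate numbers follow accession order and pair nothing. Identifiers were named from GENCODE M21, which covered 55227 of 55487; the other 260 held 0.0113% of counts. Sequence shared with other genes was counted in 31-base words, with 10% as the floor. On simulated counts for 17321 genes in this comparison, the fit found 22.4% of those set to 1.5-fold (67 genes), 68.7% of those set to 2-fold (67) and 97% of those set to 4-fold (66), and made 4 false calls.

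Members and lists were chosen with earlier results of these data known. Named are the mitochondrial genes, the listed cofactor and isoform genes, Sdha, and up to 4 called members per complex and direction. Also named are members with a called prefix difference, and up to 2 called genes per direction of each other list. Further members were named after their values were seen. Further genes of the other lists were named outside this rule, among them Slc25a4, Slc25a12, Ckmt1, Pdha1, Coq4 and Ppargc1b. The rule does not catch subunits under other symbols.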

Additional observations from a re-analysis of the deposited data

Results flagged for a closer look

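Among 69 quantities in 138 groups of 5 libraries, 14 groups held a library whose gap to the nearest of the others exceeded 0.71 of the group's range (Dixon's 95% value); chance gives such a gap in about 1 in 20 groups. Several of the 14 are sums of the same genes and are not independent.

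KI 3 stood above the other KI libraries in the summed TPM of the mitochondrial genes (98191, others 67867 to 72094), of mitochondrial complex I genes (35694, others 25383 to 26176) and of mitochondrial complex IV genes (25339, others 17244 to 19429), and in the share of counts in the 4 nuclear copies (2.31%, others 2.02% to 2.09%). Its muscle marker level, 9.97, was also the highest of the KI libraries.

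WT 5 stood above the other WT libraries in the summed TPM of nuclear subunits (28529, others 24885 to 25786), also without the 3 muscle isoforms (27515, others 24105 to 25032), of nuclear complex I genes (8697, others 7539 to 7821) and of complex II genes (636, others 546 to 559). WT 4 was low in the summed TPM of Cox8a and Cox8b (709, others 802 to 833).

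Among KI libraries, KI 5 was high in Ndufa4l2 (49.1 CPM, others 29.9 to 33.4). The share of a pair's joint counts given to the mitochondrial row stood apart in KI 5 for mt-Co1 (79.4%) and mt-Co2 (4.41%), in KI 4 for mt-Co3 (25.9%) and in KI 2 for mt-Atp6 (7.73%).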

How the results depend on the processing

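For 40 named members, 959 values under alternatives were compared with the reported ones: 803 kept direction and side of the threshold, 103 lost the call, 23 gained one and 30 changed sign, none of them called under either setting. Signs changed with the muscle level for Ndufv1 (0.11), Ndufv2 (0.055), Ndufs7 (0.16), Sdhc (0.0011), Uqcrfs1 (0.13), Cyc1 (0.11), mt-Co3 (0.034), Cox6a2 (0.28) and Cox8b (0.22); in EAS37 alone for Ndufv2 (0.0086), Cyc1 (0.031), mt-Co2 (0.16), mt-Co3 (0.34) and mt-Atp6 (0.043); in EAS42 alone for Ndufs8 (-0.0086), Ndufa4 (-0.13), Sdhd (-0.085), Cox4i1 (-0.10), Cox7a2 (-0.015) and mt-Atp8 (0.14); and on log2 TPM for Ndufs8 (-0.035), Sdhd (-0.028) and Cox4i1 (-0.026). Leaving out 1 library also did so: mt-Co3 ranged from -0.31 to 0.013 (without WT 4), Ndufs7 from -0.072 to 0.022 (above 0 without KI 2 or KI 4) and Cyc1 from -0.045 to 0.027 (above 0 without WT 5, KI 2, KI 4 or KI 5). Members called numbered 4 higher and 8 lower. No filter gave 2 higher; the muscle level as a covariate gave 0 and 0, with 425 genes in place of 5351 and a nuclear median of 0.11; EAS42 alone gave 1 and 3, with 2488 genes; limma on log2 TPM gave 2 and 16. Leaving out 1 library gave 2 to 4 higher and 1 to 10 lower. The prefix difference was called for 40 genes, in place of 150, with the muscle level. DESeq2 size factors, nuclear scaling, a minimum count of 50, the non-robust fit, the prefix as a block, EAS37 alone, DESeq2 and limma-voom stayed within 1.5 times of both counts. Merging mitochondrial rows with their copies, chosen after seeing the data, gave 4 and 8, and 4 and 10 without KI 3. No paired analysis was possible because the replicate numbers follow accession order and pair nothing. With 5 libraries a group, most 1.5-fold changes in the simulation were missed. It changed only 67, 67 and 66 genes, drawn from genes at large, so its rates do not carry over to the subunits. The median SE of the log2 fold change was 0.097 for members and 0.155 for all genes tested. A subunit that was not called may still differ at this depth. EAS37 and EAS42 alone hold 2 or 3 libraries a group. TPM scaling moved the median of all genes to -0.07.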
